A study of Mus musculus with 16 samples.

Results

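The dynamin superfamily genes considered here are the 3 classical dynamins Dnm1, Dnm2 and Dnm3 and the 4 mitochondrial members Dnm1l, Mfn1, Mfn2 and Opa1. They were taken by symbol, as the rows of the count table whose Ensembl identifier carries that name in the GENCODE annotation of GRCm38. This gave 7 genes of the 29730 in the table. All 7 passed the filter on low counts, which left 14960 genes for testing.

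RNA of the tibialis anterior, a shin muscle that lifts the foot, was sequenced in 16 male mice of strain C57BL/6N aged 7 weeks. Wild-type animals received PBS (WT_PBS) or ASO1, an antisense oligonucleotide (WT_ASO), and so did Bin1mck-/- knockout animals (KO_PBS and KO_ASO), with 4 samples in each of the 4 groups. The series title names Dnm2 as the transcript that ASO1 lowers. Not given in the sources used here were the meaning of mck in the line's name, the part of Bin1 removed, and the sequence, dose and schedule of ASO1.

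Dynamins are large GTPases that assemble into collars on membrane tubules and constrict or cut them. Dnm1 is best known from synapses, Dnm2 is expressed in nearly all tissues, and Dnm3 is known mainly from brain and testis. Among the mitochondrial members, Dnm1l codes for the GTPase that divides mitochondria, Mfn1 and Mfn2 join their outer membranes, and Opa1 joins their inner membranes. Bin1 codes for amphiphysin 2, a membrane-curving protein that binds dynamin, and mutations of BIN1 or DNM2 cause centronuclear myopathies in patients.

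The classical dynamins resembled each other closely in coding sequence, and the stretches shown here are the longest runs that Dnm2 shares with Dnm1 and with Dnm3, where a short oligonucleotide or read could match both genes. Shorter shared stretches are not shown. Over aligned coding bases Dnm1 and Dnm2 were 79.1% identical, Dnm2 and Dnm3 75.0%, and Dnm1 and Dnm3 74.1%, against 68.2% for Mfn1 and Mfn2. The longest run without a mismatch was 35 bases between Dnm2 and Dnm3 and 34 bases between Dnm1 and Dnm2. It was 26 bases between Dnm1 and Dnm3 and 21 bases between Mfn1 and Mfn2. For Dnm2 against the 4 mitochondrial members the longest run was 11 to 17 bases. In the lines that follow, capitals mark the run shared without a mismatch by the named pair, and 15 flanking coding bases on each side are in lower case.
Dnm2, shared with Dnm3: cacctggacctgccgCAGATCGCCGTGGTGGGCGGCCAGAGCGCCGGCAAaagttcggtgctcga
Dnm3, shared with Dnm2: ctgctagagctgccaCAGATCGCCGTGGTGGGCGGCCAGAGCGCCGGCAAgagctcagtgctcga
Dnm2, shared with Dnm1: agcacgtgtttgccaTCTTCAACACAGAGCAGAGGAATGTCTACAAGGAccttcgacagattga
Dnm1, shared with Dnm2: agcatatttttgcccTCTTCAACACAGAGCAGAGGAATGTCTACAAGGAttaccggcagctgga

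The run shared by Dnm2 and Dnm3 lies in coding sequence of exon 1 of each gene, at chr9:21425192-21425226 on the plus strand for Dnm2 and at chr1:162477693-162477727 on the minus strand for Dnm3 (GRCm38). It codes for part of the GTPase domain. The run shared by Dnm1 and Dnm2 crosses an exon junction in both genes. In Dnm2 it joins exons 16 and 17 (chr9:21499349-21500272, plus strand, intron included), and in Dnm1 it joins exons 15 and 16 (chr2:32315896-32316916, minus strand, intron included). Of the distinct 20-base words in the Dnm2 coding sequence, 49, or 1.89%, also occurred in Dnm1. Dnm2 shared 33 with Dnm3, which is 1.28% of those in Dnm3, and it shared 0 with any mitochondrial member. Reads inside such stretches are not unique to 1 gene, and the read length is not given in the sources used here. Where ASO1 binds on Dnm2 was not analysed here.

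Each classical dynamin gene also holds a miR-199 gene in an intron, on the opposite strand. Mir199b lies in intron 14 of Dnm1 (chr2:32318460-32318569), Mir199a-1 in intron 15 of Dnm2 (chr9:21496495-21496564) and Mir199a-2 in intron 14 of Dnm3 (chr1:162217814-162217923). The 3p products of these genes have the same mature sequence, and Mir214, also in intron 14 of Dnm3, gives a miRNA with another seed. Sequences are from RefSeq, with the seed, bases 2 to 8, in capitals.
miR-199a-3p and miR-199b-3p: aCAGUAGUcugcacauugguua
miR-199a-5p: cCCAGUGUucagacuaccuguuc
miR-214-3p: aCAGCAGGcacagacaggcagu
These libraries were made from messenger RNA and do not measure mature miRNAs. Mir199a-1 had a mean of 0.125 counts per sample, and counts of the other miRNA genes were not analysed here.

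Bin1, the gene that the knockout label names, was checked first. Levels are given as CPM (read counts per megaread of library total, with totals adjusted by TMM). Bin1 measured 475, 554, 487 and 463 CPM in the WT_PBS samples and 479, 533, 620 and 524 CPM in WT_ASO. It measured 47.7, 40.8, 43.7 and 47.4 CPM in KO_PBS and 35.4, 31.9, 42.9 and 31.7 CPM in KO_ASO. Every knockout sample was thus far below every wild-type sample, with a log2 fold change (log2FC) of -3.46 in KO_PBS vs WT_PBS (SE 0.12, adjusted P value 1.91e-11, edgeR's quasi-likelihood test with Benjamini-Hochberg adjustment over all genes tested). Muscle was checked with 8 markers of the muscle fibre, whose summed level was at least 127001 CPM in every sample. Total counts ran from 27591900 to 40862854 per sample, and the 7 members had between 107 and 35572 counts in a sample.

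Dnm2 (chr9:21424908-21507759, plus strand, protein coding) was lower in every sample that received ASO1, in both genotypes. It measured 58.0, 53.4, 62.8 and 50.2 CPM in WT_PBS and 24.6, 23.1, 29.4 and 25.4 CPM in WT_ASO. It measured 63.1, 61.4, 67.7 and 59.1 CPM in KO_PBS and 24.4, 20.7, 22.8 and 31.1 CPM in KO_ASO. The lowest PBS sample, at 50.2 CPM, exceeded the highest ASO sample, at 31.1 CPM. Dnm2 therefore stood at 45.7% of its PBS level in wild-type muscle, with a log2FC of -1.13 (SE 0.11, 95% confidence interval -1.37 to -0.89, adjusted P value 0.000396). In the knockout it stood at 39.4%, with a log2FC of -1.34 (SE 0.11, interval -1.59 to -1.10, adjusted P value 1.72e-05). Averaged over the genotypes the effect of ASO1 was -1.24 (interval -1.41 to -1.07, adjusted P value 6.30e-07), and an exact permutation within genotypes gave a two-sided p of 0.000408, the smallest it can give.

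The size of the Dnm2 decrease did not differ detectably between genotypes. The interaction was -0.21 on the log2 scale (interval -0.55 to 0.12, adjusted P value 0.64), so a further decrease of up to 0.55 in the knockout lies within the interval, and it ran from -0.34 to -0.14 with 1 sample left out, the ends being without KO_ASO replicate 4 and without KO_ASO replicate 2. Dnm2 was 25.6 ± 2.72 CPM in WT_ASO and 24.8 ± 4.48 CPM in KO_ASO (SD, n = 4 each), a log2FC of -0.05 (interval -0.29 to 0.19). Loss of Bin1 alone left Dnm2 at 112% of the wild-type level, 62.8 ± 3.63 against 56.1 ± 5.51 CPM (SD, n = 4 each), and the log2FC of 0.16 (interval -0.07 to 0.40) did not pass the test (adjusted P value 0.38; log2FC 0.31 with library totals alone). Against wild-type muscle given PBS, Dnm2 in KO_ASO was lower by a log2FC of -1.18 (SE 0.11, adjusted P value 7.24e-05).

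**Figure D1:**
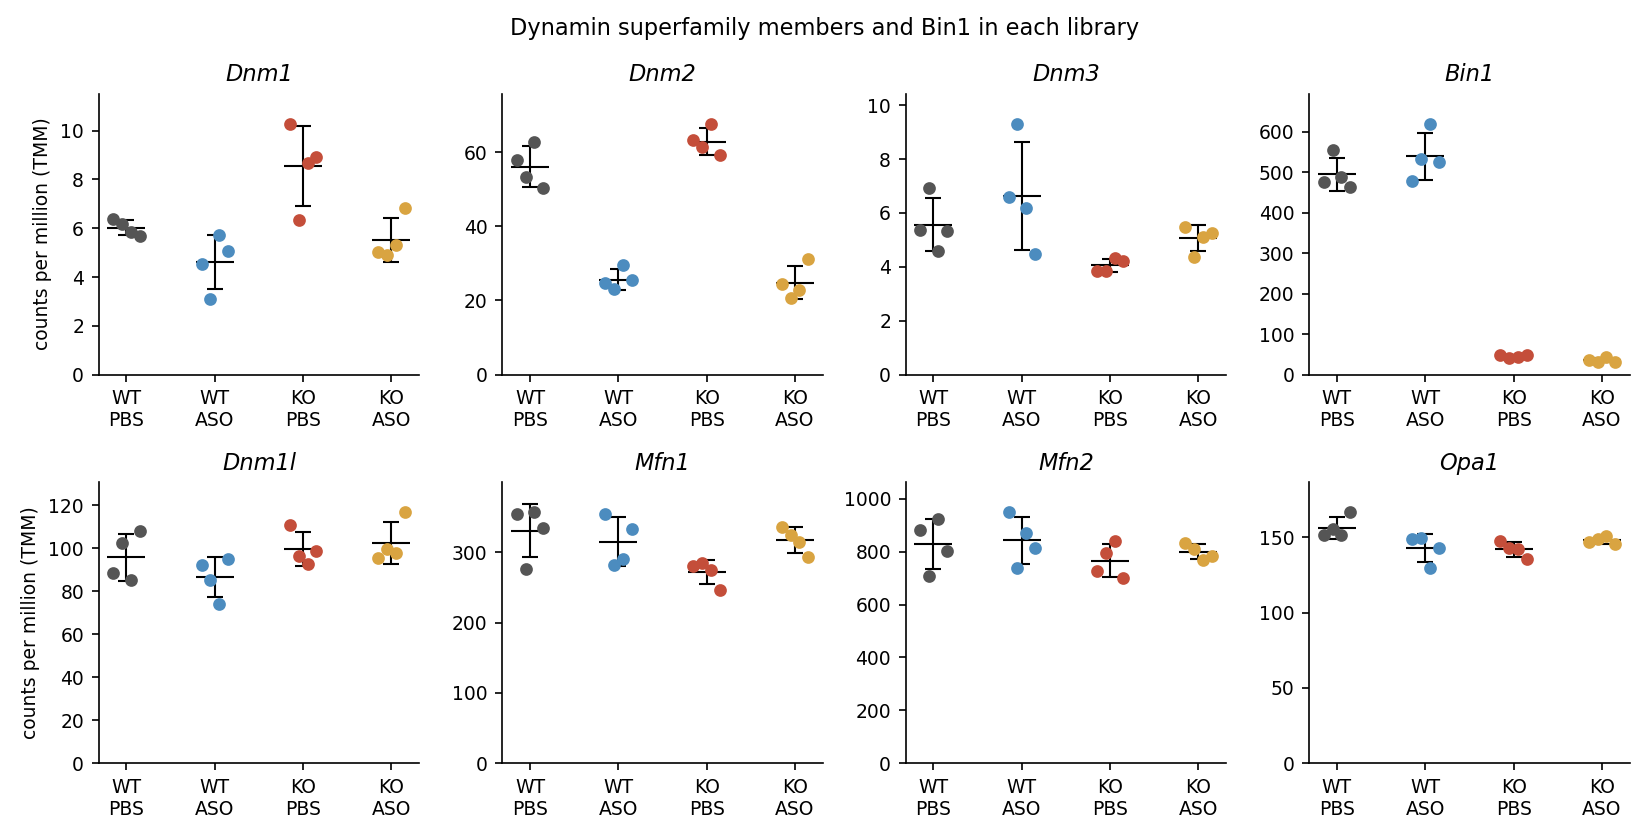
CPM of the 3 classical dynamins, Bin1 and the 4 mitochondrial members in each sample, by group; points are samples, the wide bar is the mean and the whiskers are the SD (n = 4), and every axis starts at 0. All 8 ASO samples lie below all 8 PBS samples for Dnm2, at 20.7 to 31.1 against 50.2 to 67.7 CPM. No mitochondrial member differs between groups by as large a factor as Dnm2 does between PBS and ASO groups. For Mfn1 all KO_PBS samples lie below all KO_ASO samples, and for Dnm1l all WT_ASO samples do. For Opa1 all WT_PBS samples lie above the rest.

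Within the family, Dnm2 was the only member that passed as differentially expressed (a DEG) in any of the 7 comparisons. A DEG here had an adjusted P value under 0.05 in the main edgeR fit, which did not model replicate numbers. Fits that modelled replicate numbers or used library totals alone also called Dnm1 in KO_PBS vs WT_PBS and KO_ASO vs KO_PBS. With ASO1 in wild-type muscle 1 of 7 members was called, against 0.00668% of all genes tested, and Dnm2 was the single gene called among 14960 with edgeR, while DESeq2 called 35 genes, Dnm2 among them. The gene with the next smallest P value there was Vps13a (log2FC -0.73, adjusted P value 0.13). At an unadjusted P value under 0.05 were 2 of 7 members in WT_ASO vs WT_PBS (6.45% of all genes), 3 of 7 in KO_ASO vs KO_PBS (17.7%), 1 of 7 in KO_ASO vs WT_PBS (8.22%) and 3 of 7 for the mean effect (13.3%). In KO_ASO vs KO_PBS 1 of 7 was called against 3.64% of all genes, and Dnm2 ranked 2 of 14960 by P value, behind Ahnak2 (log2FC -2.78). For the mean effect over genotypes 1 of 7 was called against 0.421% of all genes, and Dnm2 ranked 1. In KO_ASO vs WT_PBS 1 of 7 was called against 0.0401%.

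No member was called in the remaining comparisons with edgeR. In KO_PBS vs WT_PBS 0 of 7 were called against 12.6% of all genes, although 3 of 7, Dnm1, Dnm3 and Mfn1, had an unadjusted P value under 0.05, which 27.3% of all genes had. In KO_ASO vs WT_ASO 0 of 7 were called against 0.0735%, with 2 of 7 under 0.05 unadjusted (15.1% of all genes). For the interaction 0 of 7 were called against 0.575%, with 1 of 7, Mfn1, under 0.05 unadjusted (12.7% of all genes). With DESeq2 the counts of members called were 2, 0 and 0 in these comparisons, against 2478, 412 and 362 of 29698 genes with a P value. The other 6 members had log2FC values from -0.39 to 0.26 in WT_ASO vs WT_PBS and from -0.63 to 0.32 in KO_ASO vs KO_PBS, all smaller in size than that of Dnm2.

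**Figure D2:**
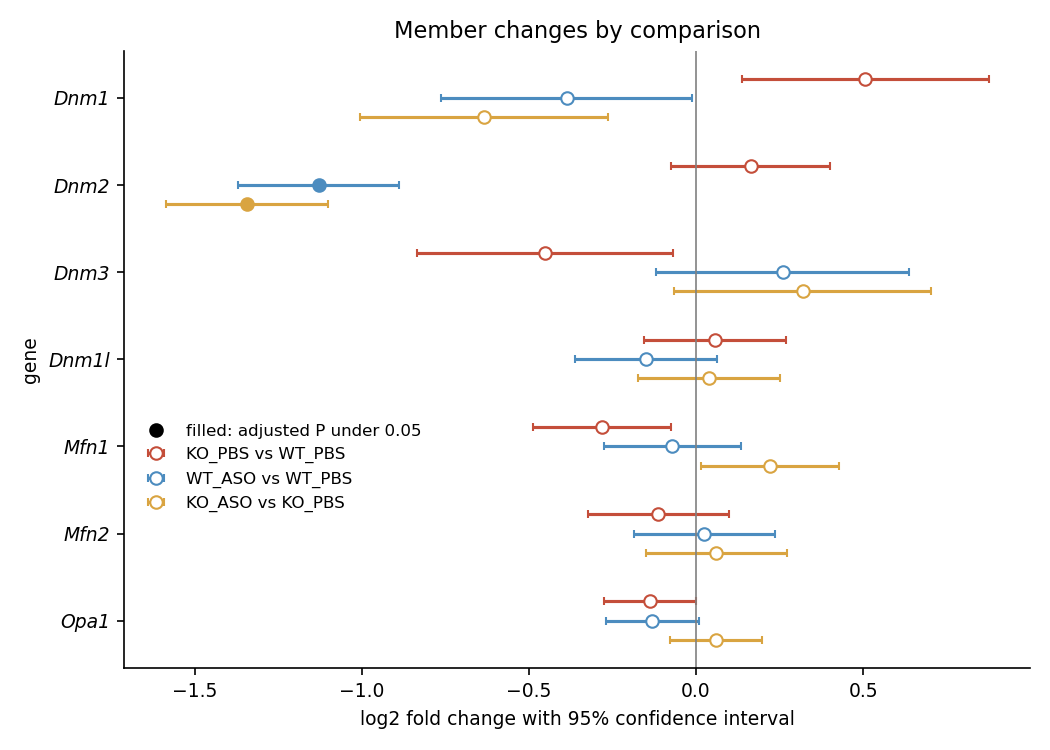
Log2 fold change of each member (horizontal axis) in 3 comparisons, with 95% confidence intervals from the fit to all 16 samples; filled points passed an adjusted P value of 0.05. The 2 filled points belong to Dnm2, at -1.13 and -1.34, and the points of Dnm1 and Dnm3 lie on opposite sides of 0 in each comparison.

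Dnm1 (chr2:32308471-32353338, minus strand, protein coding), the closest relative of Dnm2 by sequence, was not higher with ASO1 in either genotype. It measured 6.38, 6.18, 5.86 and 5.67 CPM in WT_PBS and 4.55, 3.10, 5.71 and 5.06 CPM in WT_ASO. It measured 10.3, 6.35, 8.65 and 8.93 CPM in KO_PBS and 5.02, 4.92, 5.30 and 6.83 CPM in KO_ASO. In the knockout, 3 of 4 KO_PBS samples lay above all WT_PBS and all KO_ASO samples, and KO_PBS replicate 2 lay among them. The log2FC of Dnm1 was 0.51 in KO_PBS vs WT_PBS (SE 0.17, interval 0.14 to 0.88, adjusted P value 0.067) and -0.63 in KO_ASO vs KO_PBS (SE 0.18, interval -1.0 to -0.26, adjusted P value 0.055), which missed the threshold narrowly in both. In wild-type muscle with ASO1 it was -0.39 (SE 0.18, interval -0.76 to -0.01, adjusted P value 0.76), and -0.24 without WT_ASO replicate 2, the lowest sample. The mean effect of ASO1 on Dnm1 was -0.51 (SE 0.12, interval -0.77 to -0.25), with an unadjusted P value of 0.000813 at rank 137 of 14960, an adjusted P value of 0.089 and an exact permutation p of 0.00204.

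Whether Dnm1 was called depended on the settings and on single samples. With all samples kept, 4 of 7 other settings called it in KO_PBS vs WT_PBS and 5 of 7 in KO_ASO vs KO_PBS. DESeq2 called it in both, at adjusted P values of 0.038 and 0.012, and so did library totals alone, at 0.024 and 0.032. Without KO_PBS replicate 2 the log2FC was 0.63 in KO_PBS vs WT_PBS (adjusted P value 0.029) and -0.76 in KO_ASO vs KO_PBS (adjusted P value 0.025). Without KO_ASO replicate 4 the latter was -0.75 (adjusted P value 0.027), and without WT_ASO replicate 2, a sample outside both comparisons, the adjusted P values were 0.033 and 0.027.

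Summed macrophage and fibroblast markers, like Dnm1, were highest on average in KO_PBS. In WT_ASO, however, macrophage markers averaged 48.5 CPM against 38.6 CPM in WT_PBS, while Dnm1 was lower there. The summed level of 8 macrophage markers ran from 81.6 to 201 CPM in KO_PBS, against 28.2 to 51.0 in WT_PBS, 34.1 to 68.7 in WT_ASO and 32.1 to 58.6 in KO_ASO. Of these markers 8 of 8 were called higher in KO_PBS vs WT_PBS and 6 of 8 lower in KO_ASO vs KO_PBS. The summed level of 6 fibroblast markers ran from 1029 to 1764 CPM in KO_PBS, against 763 to 1040 in WT_PBS, 336 to 1235 in WT_ASO and 412 to 1373 in KO_ASO, and each of these ranges overlaps that of KO_PBS. Of the fibroblast markers 3 of 6 were called higher in KO_PBS vs WT_PBS and 1 of 6 lower in KO_ASO vs KO_PBS. KO_PBS replicate 2 was the lowest of its group for Dnm1, for macrophage markers and for fibroblast markers. The highest KO_PBS sample was replicate 1 for Dnm1 and replicate 4 for both marker sums. KO_ASO replicate 4, the highest of its group for Dnm1, Dnm2 and Dnm1l, had 424 CPM of summed erythrocyte markers against 23.4 to 51.8 in the other KO_ASO samples. It was also the highest KO_ASO sample for macrophage (58.6 CPM) and fibroblast (1373 CPM) markers. The same held for every other marker list except those of muscle fibre and satellite cells. Of 4 satellite cell markers 3 were called lower in KO_PBS vs WT_PBS, with a median log2FC of -1.35. Their sums, in which abundant markers weigh most, were 22.2 to 25.4 against 24.3 to 29.6 CPM. Of 7 tested Schwann cell and nerve markers 0 were called, with 105 CPM in WT_ASO replicate 4 and 26.1 to 64.0 in the other samples. No endothelial, adipocyte or erythrocyte marker was called in KO_PBS vs WT_PBS, WT_ASO vs WT_PBS or KO_ASO vs KO_PBS. Of 4 pericyte markers 1 was called higher and 1 lower in KO_PBS vs WT_PBS, and of 8 fibre markers 1 was called higher and 2 lower in KO_PBS vs WT_PBS, and 1 lower in KO_ASO vs KO_PBS. The part of cell composition in the member values was not tested, and in bulk RNA fewer cells of a type and less RNA per cell cannot be told apart.

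Dnm3 (chr1:161982453-162478034, minus strand, protein coding) was the classical dynamin whose point estimates were higher with ASO1. It measured 5.38, 6.93, 4.59 and 5.34 CPM in WT_PBS and 6.58, 9.32, 6.19 and 4.47 CPM in WT_ASO. It measured 3.83, 3.85, 4.32 and 4.22 CPM in KO_PBS and 5.49, 4.38, 5.12 and 5.26 CPM in KO_ASO. The wild-type groups overlapped, while all KO_PBS samples were below all WT_PBS and all KO_ASO samples. Such separation occurred for 20.4% of all genes in KO_PBS vs WT_PBS and 10.4% in KO_ASO vs KO_PBS. The log2FC of Dnm3 was -0.45 in KO_PBS vs WT_PBS (SE 0.18, interval -0.83 to -0.07, adjusted P value 0.12; -0.30 with library totals alone) and 0.32 in KO_ASO vs KO_PBS (SE 0.18, interval -0.07 to 0.70, adjusted P value 0.39). With ASO1 in wild-type mice it was 0.26 (interval -0.12 to 0.64, adjusted P value 0.85), and none of these passed the test. The wild-type value fell to 0.05 without WT_ASO replicate 2, the highest sample, and was 0.41 without WT_ASO replicate 4, the lowest. The upper bounds with ASO1 correspond to increases of 1.56-fold in wild-type and 1.63-fold in knockout muscle. The mean effect of 0.29 (interval 0.02 to 0.56) had an adjusted P value of 0.33 and an exact permutation p of 0.049. With 1 sample left out this mean effect ran from 0.19 to 0.36.

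Genes on the opposite strand overlap each classical dynamin, and the strand setting of the counting is not given in the sources used here. Ciz1 overlaps Dnm1 by 1012 bases, Tmed1 overlaps Dnm2 by 207 bases, and the antisense RNA gene Dnm3os lies within Dnm3. In WT_ASO vs WT_PBS the log2FC was 0.12 for Ciz1, 0.01 for Tmed1 and -0.08 for Dnm3os, with adjusted P values of 0.85, 0.99 and 0.99. Dnm3os, with 21 to 136 counts in a sample, measured 1.32 ± 0.61 CPM in WT_PBS, 1.24 ± 0.31 in WT_ASO, 2.59 ± 1.01 in KO_PBS and 1.62 ± 0.55 in KO_ASO (SD, n = 4 each). Its log2FC in KO_PBS vs WT_PBS was 0.97 (SE 0.37, adjusted P value 0.094), opposite in sign to that of Dnm3.

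Levels were compared between genes only per length, as CPM per kilobase of the union of annotated exons. In WT_PBS the order was Mfn2 (160 ± 18.3), Mfn1 (54.1 ± 6.10), Opa1 (19.8 ± 0.92), Dnm1l (18.4 ± 2.1), Dnm2 (10.5 ± 1.03), Dnm1 (1.15 ± 0.06) and Dnm3 (0.227 ± 0.040; SD, n = 4 each). Opa1 and Dnm1l overlapped sample by sample in every group and changed places in the knockout groups, while all other neighbours in the order were separated in every group. With the longest annotated transcript as the length, Dnm3 in WT_PBS was 0.739 ± 0.130, since its union of exons, 24452 bases, is longer than its longest transcript, 7523 bases, and Dnm1 and Dnm3 then overlapped in WT_ASO.

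Dnm2 made up most of the classical dynamin level in all groups, and its share fell with ASO1 while the summed level of the classical dynamins fell as well. The share was 88.3, 87.3, 90.03 and 87.9% in WT_PBS and 80.3, 81.7, 80.5 and 80.6% in WT_ASO. It was 84.8, 89.4, 87.4 and 85.5% in KO_PBS and 79.5, 77.7, 77.9 and 79.4% in KO_ASO. No ASO sample reached a PBS sample of its genotype. The mean difference was -7.62 percentage points in wild-type and -8.21 in knockout muscle. Each had a two-sided exact permutation p of 0.0286, the smallest possible with 4 against 4, and 0.0429 after adjustment over 3 comparisons. Since Dnm2 is itself part of the share, these differences follow largely from its decrease and are not separate evidence. In KO_PBS vs WT_PBS the difference of -1.58 points had an adjusted exact permutation p of 0.23, and with the longest transcript as length it was -0.37 points (adjusted exact permutation p 0.74).

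The summed level of the classical dynamins is given as a description. It was 11.9 ± 1.03 CPM per kilobase in WT_PBS, 5.96 ± 0.66 in WT_ASO, 13.6 ± 0.80 in KO_PBS and 5.90 ± 1.01 in KO_ASO (SD, n = 4 each). Dnm1 and Dnm3 together were 1.37 ± 0.09 in WT_PBS and 1.15 ± 0.15 in WT_ASO, and 1.8 ± 0.31 in KO_PBS and 1.26 ± 0.18 in KO_ASO. The share of Dnm2 thus fell without a higher summed level of Dnm1 and Dnm3 in the ASO groups. With the longest transcript as length the sum of Dnm1 and Dnm3 was 2.05 ± 0.17 and 1.88 ± 0.15 in the wild-type groups and 2.40 ± 0.36 and 1.87 ± 0.22 in the knockout groups, in the same order.

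**Figure D3:**
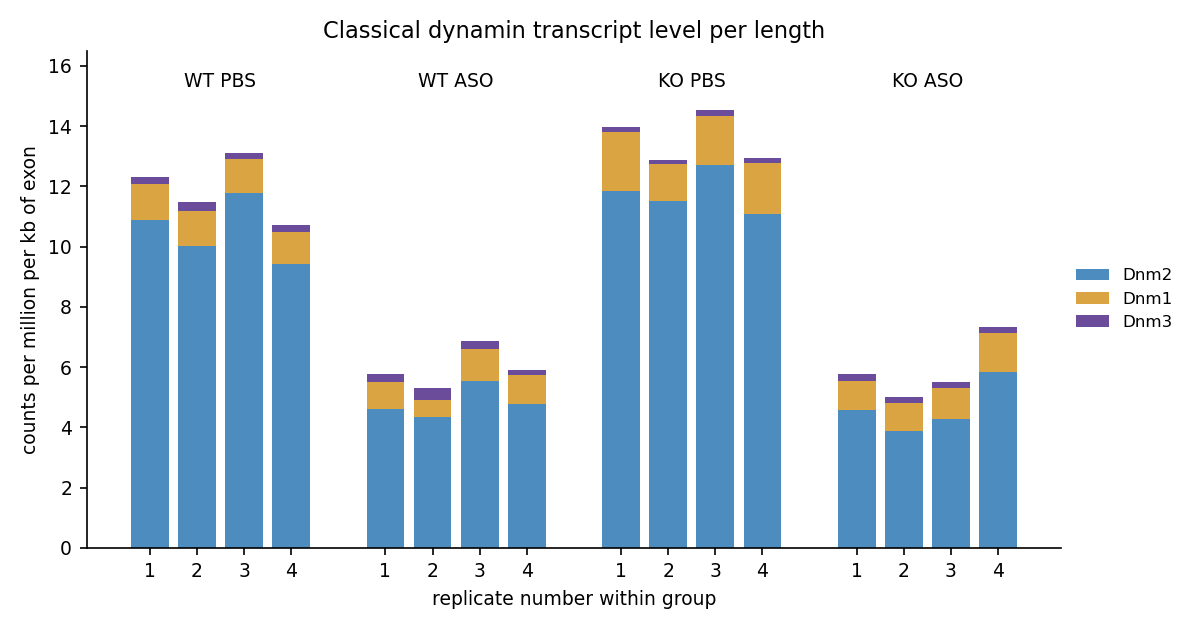
Stacked bars of the Dnm2, Dnm1 and Dnm3 levels in each sample, in CPM per kilobase of exon, with 1 bar per sample and no error bars. The bars of the 8 PBS samples reach 10.7 to 14.5 and those of the 8 ASO samples 5.002 to 7.35, and the Dnm1 and Dnm3 segments together average 1.15 in WT_ASO against 1.37 in WT_PBS and 1.26 in KO_ASO against 1.8 in KO_PBS, with the thin Dnm3 segment alone higher on average in the ASO groups.

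None of the mitochondrial members was called with edgeR in any of the 7 comparisons. Dnm1l (chr16:16312230-16358959, minus strand), the fission GTPase, measured 88.5, 102, 85.1 and 108 CPM in WT_PBS, 92.3, 85.1, 74.0 and 94.8 in WT_ASO, 111, 96.6, 92.9 and 98.8 in KO_PBS and 95.6, 99.6, 98.0 and 117 in KO_ASO. The groups overlapped except KO_ASO and WT_ASO, a separation seen for 6.97% of genes, where the log2FC was 0.24 (SE 0.10, adjusted P value 0.27). With ASO1 the log2FC of Dnm1l was -0.15 in wild-type (interval -0.36 to 0.06; -0.08 without WT_ASO replicate 3 and -0.09 without WT_PBS replicate 4) and 0.04 in knockout muscle (interval -0.17 to 0.25).

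Mfn1 (chr3:32529465-32579239, plus strand), an outer membrane fusion GTPase, had the lowest values in KO_PBS. It measured 354, 277, 357 and 334 CPM in WT_PBS, 355, 281, 291 and 333 in WT_ASO, 281, 285, 275 and 247 in KO_PBS and 336, 325, 315 and 293 in KO_ASO. All KO_PBS samples lay below all KO_ASO samples, a separation seen for 10.4% of genes, and WT_PBS replicate 2 lay within the KO_PBS range. The log2FC was -0.28 in KO_PBS vs WT_PBS (SE 0.10, interval -0.49 to -0.08, adjusted P value 0.068) and 0.22 in KO_ASO vs KO_PBS (SE 0.10, interval 0.01 to 0.43, adjusted P value 0.24). Without WT_PBS replicate 2 the first of these was -0.36 with an adjusted P value of 0.026, and DESeq2 gave 0.035 with all samples. With library totals alone both were smaller, at -0.14 and 0.13. Its value in WT_ASO vs WT_PBS was -0.07 (interval -0.28 to 0.14), and -0.15 to -0.02 with 1 sample left out.

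Mfn2 (chr4:147873599-147904704, minus strand), its partner in outer membrane fusion, was the most abundant member and overlapped between all groups. It ran from 707 to 923 CPM in WT_PBS, 739 to 950 in WT_ASO, 701 to 842 in KO_PBS and 769 to 834 in KO_ASO. Its log2FC lay between -0.11 and 0.06 in the comparisons of groups, and its sign turned in each of them when library totals alone were used for scaling. The ratio of Mfn2 to Mfn1 per length was 2.95 ± 0.10 in WT_PBS, 3.16 ± 0.27 in WT_ASO, 3.32 ± 0.23 in KO_PBS and 2.97 ± 0.12 in KO_ASO (SD, n = 4 each). The ratio was higher in every KO_PBS sample, from 3.05 to 3.60, than in any WT_PBS sample, from 2.83 to 3.04, with an exact permutation p of 0.0286 and 0.086 after adjustment over 3 comparisons. For KO_ASO vs KO_PBS the exact permutation p was 0.057 (adjusted 0.086) and for WT_ASO vs WT_PBS 0.20, so no ratio difference passed after adjustment.

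Opa1 (chr16:29579334-29654884, plus strand), which fuses the inner membrane, measured 151, 155, 152 and 167 CPM in WT_PBS, 149, 149, 130 and 143 in WT_ASO, 147, 143, 142 and 136 in KO_PBS and 147, 149, 151 and 146 in KO_ASO. All WT_PBS samples were above all samples of every other group, by small margins. The lowest WT_PBS sample was 151.47 CPM and the highest KO_ASO sample 151.24 CPM. Groups without overlap made up 3.22% of genes in WT_ASO vs WT_PBS, 20.4% in KO_PBS vs WT_PBS and 5.39% in KO_ASO vs WT_PBS. The log2FC was -0.13 in WT_ASO vs WT_PBS (SE 0.07, interval -0.27 to 0.01, adjusted P value 0.80) and -0.14 in KO_PBS vs WT_PBS (SE 0.07, interval -0.27 to 0.00, adjusted P value 0.19), and neither passed. With library totals alone the latter was 0.01.

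Genes near Dnm2 on the chromosome were read beside it as a description, and whether ASO1 matches any of them was not tested. The tested genes reported within 100 kb number 7. In WT_ASO vs WT_PBS 0 of 7 were called with edgeR or DESeq2, against 0.00668% of all genes with edgeR. An unadjusted P value under 0.05 was seen for 1 of 7, Slc44a2, and for 6.45% of all genes. The 7 genes had log2FC values from -0.03 to 0.19. In KO_PBS vs WT_PBS 2 of 7 were called, AB124611 and Tmed1, against 12.6% of all genes. In KO_ASO vs KO_PBS 1 of 7 was called, against 3.64%: AB124611, which begins 18.4 kb beyond the 3' end of Dnm2, had a log2FC of -2.03 (SE 0.36, adjusted P value 0.0052). The same gene was higher in KO_PBS vs WT_PBS by 2.16 (SE 0.36, adjusted P value 0.0011) and measured 0.283 ± 0.072 CPM in WT_PBS, 0.275 ± 0.028 in WT_ASO, 1.26 ± 0.57 in KO_PBS and 0.310 ± 0.143 in KO_ASO (SD, n = 4 each), so its KO_PBS level stood apart from the other groups, as did the macrophage markers. The other 6 genes had log2FC values from -0.20 to 0.23 in KO_ASO vs KO_PBS. Tmed1, a cargo receptor gene that overlaps the end of Dnm2, was lower in KO_PBS vs WT_PBS (log2FC -0.20, adjusted P value 0.045), a call lost with library totals alone (log2FC -0.06), with no filter, with only the groups compared, without any single one of the 8 samples compared (adjusted P values 0.060 to 0.14) and without KO_ASO replicate 1, 2 or 3.

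**Figure D4:**
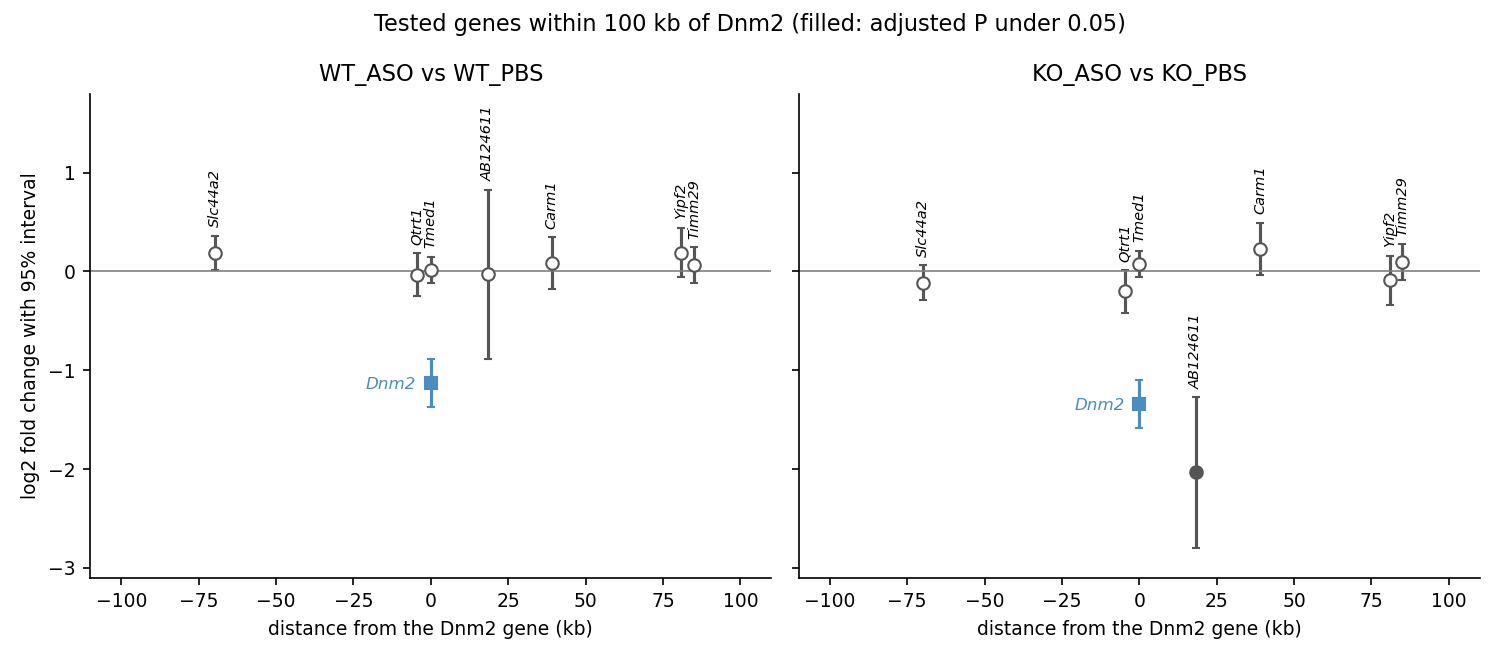
Log2 fold change with 95% confidence interval of 7 tested genes within 100 kb of Dnm2 (circles) and of Dnm2 (square), against distance from the gene in kb, with genes before its start at negative values; filled symbols passed an adjusted P value of 0.05. In wild-type muscle Dnm2 is the sole gene drawn that passed, at -1.13, and in the knockout AB124611 lies at -2.03.

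The further members of the superfamily and the EHD-type GTPases, a list of 17 genes, had 1 gene called higher and 1 lower in KO_PBS vs WT_PBS and 0 called with ASO1 in either genotype with edgeR. Of all genes 12.6% were called in KO_PBS vs WT_PBS, 0.00668% in WT_ASO vs WT_PBS and 3.64% in KO_ASO vs KO_PBS. At an unadjusted P value under 0.05 were 2 of 17 in WT_ASO vs WT_PBS (6.45% of all genes) and 9 of 17 in KO_ASO vs KO_PBS (17.7%). DESeq2 called 0 and 2 of 17 there, against 35 and 1023 of 29698 genes with a P value. Ehd4, which works in endosomal recycling, rose from 71.9 ± 5.57 to 146 ± 31.6 CPM (SD, n = 4; log2FC 1.03, SE 0.18, adjusted P value 0.0018), and its log2FC in KO_ASO vs KO_PBS was -0.56 (adjusted P value 0.098, and 0.047 with DESeq2). Atl2, an atlastin that fuses membranes of the endoplasmic reticulum, fell from 264 ± 31.6 to 181 ± 33.8 CPM (SD, n = 4; log2FC -0.55, SE 0.14, adjusted P value 0.017), and its log2FC in KO_ASO vs KO_PBS was 0.47 (adjusted P value 0.068, 0.025 with DESeq2 and 0.024 with voom). The call of Atl2 was lost without WT_PBS replicate 2 or KO_PBS replicate 1 (adjusted P value 0.058 for each) and with library totals alone (0.057). The median log2FC of the list was -0.12 in KO_PBS vs WT_PBS, -0.16 in WT_ASO vs WT_PBS and 0.47 in KO_ASO vs KO_PBS, against -0.01, 0.00 and 0.01 over all genes. The list holds 7 guanylate-binding protein genes (Gbp), for each of which KO_ASO replicate 4 was the highest KO_ASO sample. Without that sample the median in KO_ASO vs KO_PBS was 0.30 with 3 of 17 under 0.05 unadjusted, and over the 10 genes that are not Gbp it was 0.04 with all samples, with 3 of 10 under 0.05. Those 10 genes had medians of -0.03 in KO_PBS vs WT_PBS and -0.02 in WT_ASO vs WT_PBS. Leaving out 1 sample gave medians over all 17 of -0.22 to -0.08 in KO_PBS vs WT_PBS. In WT_ASO vs WT_PBS they were -0.28 to -0.11.

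Among 9 tested partners in mitochondrial fission, 1 was called with edgeR in KO_PBS vs WT_PBS, against 12.6% of all genes, and 1 in KO_ASO vs KO_PBS, against 3.64%. In both it was Gdap1, which codes for an outer membrane protein. It fell from 21.0 ± 5.73 CPM in WT_PBS to 7.81 ± 1.81 in KO_PBS (SD, n = 4; log2FC -1.42, SE 0.28, adjusted P value 0.0036). In KO_ASO it was 16.01 ± 5.47 CPM, with a log2FC of 1.04 against KO_PBS at an adjusted P value of 0.049. That call was lost in 14 of 16 fits with 1 sample left out, all but those without WT_PBS replicate 3 or KO_ASO replicate 4, and the log2FC over all 16 ran from 0.89, without KO_PBS replicate 1, to 1.26, without KO_ASO replicate 4. It was also lost in 4 of 7 other settings, among them library totals alone (adjusted P value 0.062), no filter (0.16) and only the groups compared (0.097). In WT_ASO vs WT_PBS 0 of 9 were called with edgeR or DESeq2, against 0.00668% of all genes with edgeR, with 1 of 9 under 0.05 unadjusted (6.45% of all genes), and the list median was -0.08, -0.03 and 0.06 in KO_PBS vs WT_PBS, WT_ASO vs WT_PBS and KO_ASO vs KO_PBS. With 1 sample left out the median in WT_ASO vs WT_PBS ran from -0.045, without WT_ASO replicate 2, to 0.054, without WT_PBS replicate 3. In KO_ASO vs KO_PBS it ran from 0.024, without KO_ASO replicate 3, to 0.077, without KO_ASO replicate 2. Mtfr2 did not pass the filter.

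Of 16 tested genes for mitochondrial fusion and the processing of Opa1, 0 were called in any comparison with edgeR, with 2 in KO_PBS vs WT_PBS, 0 in WT_ASO vs WT_PBS and 1 in KO_ASO vs KO_PBS at an unadjusted P value under 0.05. Over all genes 12.6, 0.00668 and 3.64% were called in these comparisons, and 27.3, 6.45 and 17.7% had such an unadjusted P value. The smallest P values belonged to the protease gene Spg7 in KO_PBS vs WT_PBS (log2FC -0.25, adjusted P value 0.066, and 0.040 with DESeq2) and to March5, a mitochondrial ubiquitin ligase gene listed as Marchf5 (log2FC -0.22 and 0.23 in KO_PBS vs WT_PBS and KO_ASO vs KO_PBS, adjusted P values 0.082 and 0.14, and 0.033 and 0.042 with voom). Miga1, a gene for a mitochondrial outer membrane protein of fusion, had a log2FC of 0.23 in KO_ASO vs KO_PBS (adjusted P value 0.35). The list medians were -0.06, 0.00 and 0.07 in KO_PBS vs WT_PBS, WT_ASO vs WT_PBS and KO_ASO vs KO_PBS. With 1 sample left out the median in KO_ASO vs KO_PBS ran from 0.0013, without KO_PBS replicate 4, to 0.083, without KO_PBS replicate 2. In WT_ASO vs WT_PBS it ran from -0.02 to 0.02. Pld6 did not pass the filter.

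SH3 domains bind the proline-rich tail of classical dynamins, and BAR domains bind and curve membranes. Of 24 genes for proteins that carry such domains or work beside dynamin in endocytosis, 22 were tested, without Sh3gl2 and Sh3gl3. In KO_PBS vs WT_PBS 2 were called higher and 2 lower, and 1 of the lower is the deleted Bin1, so 4 of 22 stand against 12.6% of all genes. The count was 5 with DESeq2, which added Sh3gl1, and 6 with voom or with library totals alone, the latter without Amph. In KO_ASO vs KO_PBS 1 of 22 was called, against 3.64%. Dbnl, an actin-binding adaptor, rose from 11.6 ± 1.59 to 18.01 ± 1.63 CPM (SD, n = 4; log2FC 0.63, SE 0.11, adjusted P value 0.0017). Cttn, the cortactin gene, rose from 25.6 ± 1.65 to 36.7 ± 4.52 CPM (SD, n = 4; log2FC 0.52, SE 0.09, adjusted P value 0.0019) and fell to 27.8 ± 1.30 CPM in KO_ASO (log2FC -0.40, SE 0.09, adjusted P value 0.026). The latter call was lost without KO_PBS replicate 1 (adjusted P value 0.094) and without KO_ASO replicate 1, 2 or 3 (adjusted P values 0.061 to 0.083), and with only the groups compared (0.061). With DESeq2 or library totals alone Bin1 was called there too, which makes 2 of 22.

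Amph, which codes for amphiphysin 1, the closest relative of Bin1, fell with the loss of Bin1. It went from 1.47 ± 0.12 to 0.761 ± 0.262 CPM (SD, n = 4; log2FC -0.95, SE 0.25, adjusted P value 0.023), and the call was lost without WT_PBS replicate 1 or KO_PBS replicate 1, 2 or 4 (adjusted P values 0.052 to 0.063) and with library totals alone (log2FC -0.80, adjusted P value 0.054). Of the 22 genes tested with it 0 were called in WT_ASO vs WT_PBS with edgeR or DESeq2, against 0.00668% of all genes with edgeR, with 1 under 0.05 unadjusted (6.45%). Of 8 clathrin and AP2 subunit genes, which build the coats of the vesicles that dynamin cuts, 0 were called in any comparison with edgeR or under any other setting run with all samples, and 0 had an unadjusted P value under 0.05 with edgeR. In KO_PBS vs WT_PBS and KO_ASO vs KO_PBS 12.6 and 3.64% of all genes were called, and 27.3 and 17.7% had such an unadjusted P value. Their smallest P values were those of Clta and Ap2s1 in KO_PBS vs WT_PBS (log2FC 0.15 each) and of Cltc and Ap2b1 in KO_ASO vs KO_PBS (log2FC -0.17 and -0.12).

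**Figure D5:**
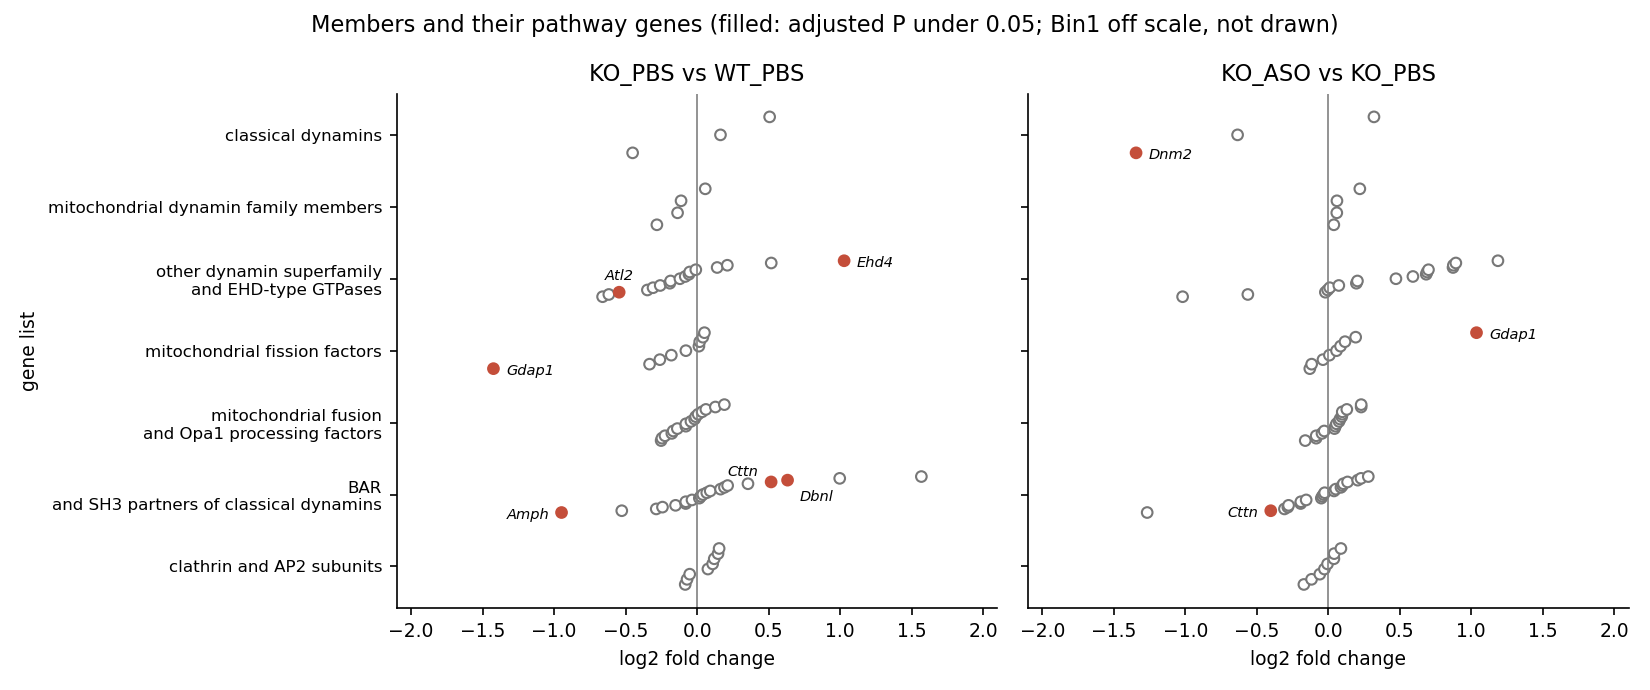
Log2 fold change of each tested member and pathway gene (horizontal axis) in KO_PBS vs WT_PBS and KO_ASO vs KO_PBS, with 1 row of points per list; filled points passed an adjusted P value of 0.05, and Bin1 (-3.46 and -0.34) is not drawn. Ehd4, Atl2, Gdap1, Dbnl, Cttn and Amph are filled on the left, and Dnm2, Gdap1 and Cttn on the right.

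The genes whose pattern over the 16 samples was most like that of a member were found by the root mean square difference of log2 CPM after scaling each gene to a mean of 0 and an SD of 1. The median difference from a member over all other genes tested was 1.40 to 1.43. For Dnm2 the nearest were Arl15 (0.507), Wwox (0.509) and Ssbp3 (0.520), and Arl15 measured 3.92, 2.12, 4.23 and 2.30 CPM on average in WT_PBS, WT_ASO, KO_PBS and KO_ASO. For Dnm1 they were Tnxb (0.362), Chid1 (0.372) and Gpr153 (0.381), and for Dnm3 they were Frat2 (0.377), Pfkfb4 (0.393) and Spns2 (0.395). For Mfn2 they were Ogdh (0.427), Nup107 (0.493) and Letm1 (0.512), for Mfn1 Plekhb2 (0.424), Adk (0.447) and Nkiras1 (0.481), for Dnm1l Ptbp3 (0.434), Aida (0.459) and 1190002N15Rik (0.468), and for Opa1 Timm21 (0.485), Gja1 (0.604) and 4930518I15Rik (0.638). Between members the smallest differences were 0.693 for Mfn1 and Mfn2 and 0.722 for Dnm1 and Dnm2, and the largest was 1.85 for Dnm1 and Dnm3.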

How the data were processed

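The labels were used to place 16 tibialis anterior samples in 4 groups, each sample being taken as a separate mouse, which the labels do not state outright; p-values measure the spread between these samples. The table that the authors deposited holds whole-number read counts for 29730 Ensembl genes without normalization, every one of which was found in GENCODE for GRCm38. For its making, STAR 2.5.3a, HTSeq 0.6.1p1, Bowtie2 2.2.8, cutadapt 1.10 and GRCm38 (mm10) appear in the submitters' processing notes. The labels name TRI Reagent for extraction and the TruSeq Stranded mRNA kit for the libraries. Annotation release, read length and strand setting were not given in the sources used here.

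Counts were tested with edgeR 4.0.16 in R 4.3.3: filterByExpr by group (14960 genes kept, 14770 removed), TMM scaling, and a robust quasi-likelihood fit with 1 mean per group over all 16 samples (common biological coefficient of variation 18.7%). P values were adjusted by Benjamini-Hochberg over all genes tested, and genes were called at 0.05. The SE is the size of the log2FC divided by the square root of F. Exact permutation tests were run over samples with SciPy 1.17.1. The code was tested on simulated data before use. Pairs of samples within a group differed by a mean chi-square per gene of at least 21.8, far above the value near 1 that sampling noise alone gives, so none was taken as a library deposited a second time. This does not show that each came from its own mouse.

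The members and lists were chosen with earlier results of these data known. Genes named were the 7 members, Bin1, up to 5 called genes per list and comparison by smallest P value (where none was called, the 2 with smallest P value in KO_PBS vs WT_PBS and KO_ASO vs KO_PBS), tested genes within 100 kb of Dnm2, opposite-strand genes with a mean of at least 10 counts, and the 3 genes most alike to each member (log2 CPM with a prior count of 2). Of the genes that this rule and the lists hold, 2 are not reported here and were left out of the lists. Vps13a and Ahnak2, and the Gbp genes of the closing section, were named after their values were seen. Alternatives were RLE scaling, library totals alone, DESeq2 1.42.0, limma 3.58.1 (voom with sample quality weights), no filter, only the groups compared, a replicate block, each sample left out, and the longest transcript as length.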

Additional observations from a re-analysis of the deposited data

Results flagged for a closer look

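No member had a sample that stood apart from the other 3 of its group by Dixon's criterion, and no member was called for the interaction. Among 120 combinations of gene or ratio and group tested in this way, 2 stood out, and chance flags about 1 in 20 groups. Cttn in KO_ASO replicate 4 was 29.7 CPM, above the other KO_ASO samples at 27.0 to 27.3 CPM. Yipf2 in WT_ASO replicate 3 was 4.92 CPM, above the other WT_ASO samples.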

How the results depend on the processing

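The decrease of Dnm2 with ASO1 kept its direction and its call in both genotypes under each of the 7 other settings and without any of the 16 samples, with a log2FC from -1.20 to -1.07 in wild-type and from -1.47 to -1.28 in knockout muscle when 1 sample was left out. The number of members called in KO_PBS vs WT_PBS, 0, became 1 with library totals alone, with only the groups compared and with the replicate block, 2 with DESeq2, and 0 to 1 with 1 sample left out. In KO_ASO vs KO_PBS it went from 1 to 2 with library totals alone, DESeq2, voom, no filter and the replicate block, and was 1 to 2 with 1 sample left out. For the mean effect it went from 1 to 2 with library totals alone and DESeq2, and was 1 to 2 with 1 sample left out. The added gene was Dnm1, and Mfn1 for DESeq2 in KO_PBS vs WT_PBS and without WT_PBS replicate 2. Over all genes the calls in WT_ASO vs WT_PBS went from 1 to 35 with DESeq2, 3 with no filter and 2 with the replicate block. In KO_ASO vs KO_PBS they went from 544 to 1023 with DESeq2, 1186 with voom and 300 with only the groups compared, and in KO_ASO vs WT_PBS from 6 to 86 with DESeq2. In KO_ASO vs WT_ASO they went from 11 to 412 with DESeq2, 6 with RLE scaling, 2 with voom or only the groups compared and 44 with the replicate block. For the mean effect they went from 63 to 370 with DESeq2, 140 with library totals alone, 102 with voom and 106 with the replicate block, and for the interaction from 86 to 362 with DESeq2. With 1 sample left out the calls were 997 (without KO_PBS replicate 1) to 2137 of 1878 in KO_PBS vs WT_PBS, 208 (without KO_PBS replicate 1) to 831 of 544 in KO_ASO vs KO_PBS, 1 to 4 in WT_ASO vs WT_PBS, 4 to 11 in KO_ASO vs WT_PBS, 2 to 19 in KO_ASO vs WT_ASO, 24 (without KO_ASO replicate 1) to 149 for the mean effect and 23 (without WT_PBS replicate 4) to 102 for the interaction. Replicate numbers did not pair the samples by the criterion used, that every same-numbered pair exceeds r = 0.1: r was -0.0777 to 0.435 with a mean of 0.116, and 11 of 24 exceeded it. Of pairs with different numbers 8 of 72 did (mean -0.0391). The same-numbered sample of another group was the most alike of the 4 there in 29 of 48 cases, a hint of shared variation. A criterion that asks this of every pair cannot show that same-numbered samples are unrelated, and the main fit held no replicate block. The replicate block raised the calls from 1878 to 2322 in KO_PBS vs WT_PBS (from 4 to 7 of the 22 dynamin partners) and from 544 to 752 in KO_ASO vs KO_PBS. It called Dnm1 in both (adjusted P values 0.046 and 0.035), Spg7 (0.031) and March5 (0.041) in the former, and Ehd4 (0.030), Atl2 (0.039), Gbp4 and Gbp9 in the latter, where it did not call Gdap1 (0.069), and Gbp4 and Gbp9 also in the interaction. Library totals alone moved the median of all genes by 0.15 in KO_PBS vs WT_PBS, where the calls were 1942 higher and 260 lower against 1112 and 766 with TMM, and by 0.10 in KO_ASO vs WT_ASO. With library totals alone these log2FC values, none of them called, turned sign: Dnm2 in KO_ASO vs WT_ASO (0.056), Dnm1l in KO_ASO vs KO_PBS (-0.052), Opa1 in KO_PBS vs WT_PBS (0.014) and KO_ASO vs KO_PBS (-0.034), and Tmed1 in WT_ASO vs WT_PBS (-0.037) and KO_ASO vs KO_PBS (-0.017). Mfn2 turned in KO_PBS vs WT_PBS (0.035), WT_ASO vs WT_PBS (-0.024), KO_ASO vs KO_PBS (-0.033), KO_ASO vs WT_PBS (0.0015), KO_ASO vs WT_ASO (0.025), the interaction (-0.0096, and -0.028 with voom) and the mean effect (-0.029). With 1 sample left out, ranges that crossed 0 were -0.18 to 0.028 for Dnm2 and -0.040 to 0.073 for Mfn1 in KO_ASO vs WT_ASO, -0.029 to 0.086 for Dnm1l in KO_ASO vs KO_PBS, -0.090 to 0.27 for Dnm3 and -0.021 to 0.11 for Mfn2 in the interaction, and -0.12 to 0.0043 for Mfn2 in KO_ASO vs WT_PBS. In WT_ASO vs WT_PBS they were -0.044 to 0.083 for Mfn2, -0.078 to 0.021 for Qtrt1, -0.019 to 0.053 for Tmed1, -0.20 to 0.092 for AB124611 and -0.028 to 0.16 for Carm1. The cause of these changes was not tested. Dnm1 and Dnm3, at 107 to 373 counts in a sample, set the widest intervals among the members.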

Other observations

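The guanylate-binding proteins, interferon-induced relatives of the dynamins that act against intracellular pathogens, were 7 of the 17 further superfamily genes. In the main edgeR fit 0 of 7 were called in any comparison. Of all genes it called 12.6% in KO_PBS vs WT_PBS, 0.00668% in WT_ASO vs WT_PBS, 3.64% in KO_ASO vs KO_PBS and 0.575% for the interaction. Voom called Gbp7 in KO_PBS vs WT_PBS, among 2723 of 14960 genes. With the replicate block edgeR called Gbp4 and Gbp9 in KO_ASO vs KO_PBS, among 752 of 14960, and in the interaction, among 126. Their log2FC values in KO_ASO vs KO_PBS ran from 0.68 (Gbp9) to 1.19 (Gbp4), and the unadjusted P value was under 0.05 for 6 of 7, against 17.7% of all genes. In WT_ASO vs WT_PBS the values ran from -0.46 (Gbp5) to -0.21 (Gbp6), with 0 of 7 under 0.05 unadjusted (6.45% of all genes). Gbp6 was 0.05 there without WT_PBS replicate 1, and the lowest value was -0.70 (Gbp4) without WT_ASO replicate 4. For the interaction the adjusted P values were 0.25 to 0.51 without the block. KO_ASO replicate 4 was the highest KO_ASO sample for 7 of 7, with 44.8 CPM of Gbp4 against 9.52 to 14.3 in the other 3 KO_ASO samples. Without that sample the log2FC values in KO_ASO vs KO_PBS ran from 0.30 (Gbp5) to 0.46 (Gbp7) and 0 of 7 were under 0.05 unadjusted. KO_ASO replicate 4 was also the sample with the highest erythrocyte markers. Among KO_ASO samples it was highest for macrophage, fibroblast, Schwann cell, endothelial, pericyte and adipocyte markers too, but not for fibre or satellite cell markers. The part of any of these in the Gbp values was not tested.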
